A study of Rattus norvegicus with 22 samples.

Results

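A2m, Orm1, Crp, Cp, C3 and Hp, genes of plasma proteins known from inflammation and pregnancy, were followed over all 22 arrays of a study of pregnant Wistar rats. They were picked by symbol: every probe set annotated to 1 of the 6 genes was taken, which gave 8 of the 15866 probe sets of the array, for 6 of its 10411 named genes. Cp had 3 probe sets, called main, second and lowest by their mean signal, and the other genes 1 each.

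Dams received retinoic acid (RA) at 12 mg/kg/day, a drug at 50 mg/kg/day (EMD50) or 150 mg/kg/day (EMD150), or vehicle (control). The title of the series gives the drug's name as EMD 82571, the design text as MSC1096199. The samples were whole embryo at gestational day 12, embryo bone and embryo liver at day 20, and maternal liver at days 20 and 12. In each of these 5 strata every treatment had 1 array, except RA, which had 2 in both strata of day 12. The RA arrays of day 12 carry the codes RA5 and RA56 in their titles, those of day 20 the code RA56, and the labels do not say what the codes stand for. The treatment protocol names dosing windows of gestational days 6 to 11 and 6 to 17, the design text only days 6 to 17. All animals were pregnant or offspring of pregnant rats, so no array shows the liver of a non-pregnant rat. Whether arrays share a dam or litter and whether RNA was pooled is not stated, and p-values measure only the spread between these samples.

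Liver cells make most plasma proteins and release them into the blood. In an injury or infection the cytokine IL-6, through its receptor and the factor STAT3, and members of the C/EBP family change the output of the liver, the acute phase response. In the rat A2m, a broad protease inhibitor, and Orm1, a carrier of basic and lipophilic molecules, are strong responders, while Crp, which binds phosphocholine on microbes and dying cells, is abundant in rat plasma without inflammation and responds less than in man. Hp binds free haemoglobin, Cp carries copper and oxidises iron, and C3 is the central protein of complement. A2m is also known to be high in the rat fetus and in late pregnancy.

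Marker genes of the labelled tissues were high where the labels place them, on the log2 scale of the deposited values. Alb, serum albumin, ranged from 14.93 to 14.98 across embryo livers, and from 15.13 to 15.22 across maternal ones. Afp, the fetal albumin relative, ranged from 14.63 to 14.67 across embryo livers, and from 8.08 to 9.27 across maternal ones. The 4 bone and cartilage genes averaged 12.03 to 12.19 on the embryo bone arrays, and 8.84 to 9.28 on those of whole embryo. The 5 measured muscle genes were high on the embryo bone arrays too, averaging 12.33 to 13.15. Liver genes also gave signal there. On the bone arrays the hepatocyte genes averaged 9.47 in control, 9.53 with RA, 7.93 with EMD50 and 8.30 with EMD150. The fetal liver and yolk sac genes averaged 11.50 on the bone control, against 10.14 to 10.72 on the other bone arrays. The bone control is the single control of its stratum and enters every bone difference. Of 13 lists with 172 genes, 131 were measured. The RA array of maternal liver at day 20 stood apart by muscle genes, with a mean of 11.25 over the 5 measured genes against 7.69 to 8.05 on the other maternal livers. The EMD50 bone array stood apart by its Gapdh control probe sets, whose 3' minus 5' difference was 2.72, against 0.57 to 0.86 on the other 21 arrays. The RA bone array and the RA56 whole embryo array had also been set aside in an earlier look at these data. Their Gapdh differences, 0.69 and 0.70, lay within the range of 0.57 to 0.86. For brevity all 4 arrays are referred to below as those that stood apart. For the RA bone array and the RA56 whole embryo array no criterion is given here. The bone control is not among the 4. The calls of the pooled treatment comparisons are given with and without them. All but the EMD50 bone array are RA arrays, so leaving the 4 out also lowers the number of RA arrays.

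Orm1, Crp, Cp, C3 and Hp were high in maternal liver at both days and low in whole embryo, while A2m was high in maternal liver at day 20 and low on 4 of 5 arrays at day 12. The genes also differed in how embryo liver compared with the mother. The order of the tissues was read for each gene separately, because signals of different probe sets cannot be set against each other. A2m was highest in embryo liver, with a mean of 14.27 ± 0.08 (SD, n = 4), ahead of maternal liver at day 20 with 12.49 ± 0.50 (n = 4). Embryo bone with 8.69 ± 0.95 (n = 4) and maternal liver at day 12 with 8.40 ± 1.58 (n = 5) overlapped, and whole embryo lay lowest at 6.99 ± 0.24 (n = 5). The spread of A2m at day 12 in the mother came from 1 array, which is described below.

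The other 5 genes had maternal liver at the top. Orm1 averaged 14.12 ± 0.21 in maternal liver at day 12 and 12.97 ± 0.21 at day 20, without overlap. Its means in embryo liver, whole embryo and embryo bone were 8.83 ± 0.69, 7.69 ± 0.85 and 7.18 ± 0.19, and each of these overlapped its neighbour. Crp showed a similar order, with 14.44 ± 0.07 and 14.12 ± 0.50 in the mother at days 12 and 20, which overlapped, and 9.51 ± 0.50 in embryo liver. Crp levels in embryo bone (8.35 ± 0.85) and whole embryo (7.92 ± 0.50) overlapped their neighbours in this order. Hp and C3 were instead close to maternal levels in embryo liver, at 14.02 ± 0.17 and 14.31 ± 0.14. Values near 15 may be compressed, since the brightest probe set of any array reached 15.22.

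**Figure D1:**
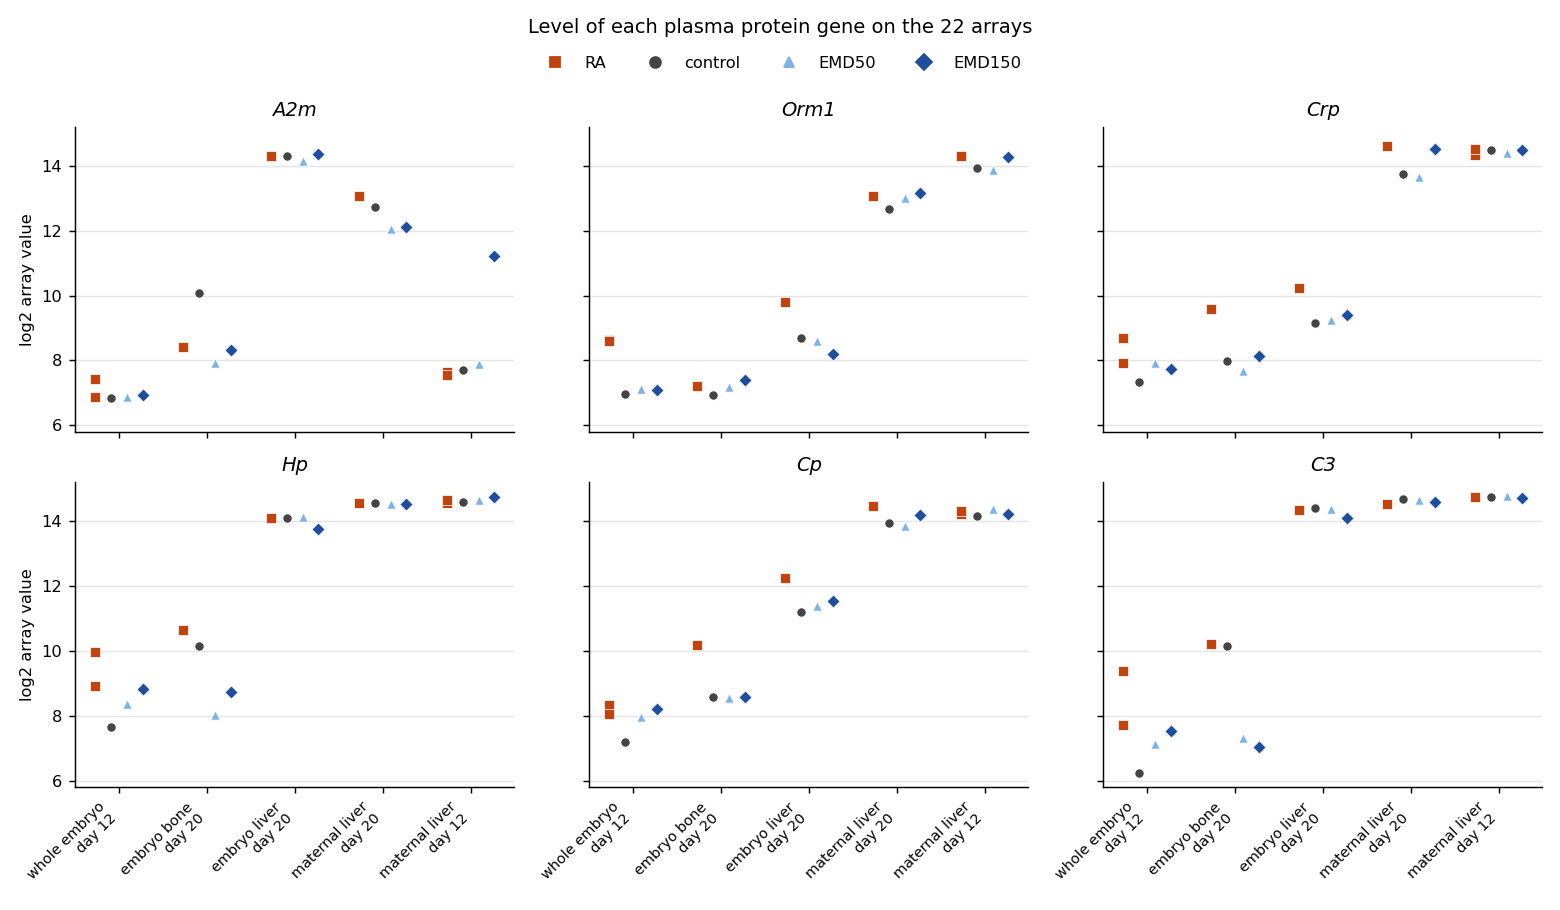
Deposited log2 values (vertical axis) of the main probe set of each of the 6 genes on the 22 arrays, by tissue and gestational day, with 1 point per array and colours for RA, control, EMD50 and EMD150. A2m is highest in the 4 embryo livers (14.15 to 14.34), and the single EMD150 point at 11.21 stands above the other maternal livers of day 12 (7.54 to 7.89).

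Embryo liver was compared with maternal liver at day 20 to ask which of these genes the late fetal liver already expressed at the level of the mother. Fetal liver had more A2m RNA than maternal liver and much less Crp, Orm1 and Cp. The 4 embryo livers had A2m at 14.30 with RA, 14.28 in control, 14.15 with EMD50 and 14.34 with EMD150, against 13.07, 12.73, 12.06 and 12.11 in the maternal livers of the same treatments. All 4 embryo livers lay above all 4 maternal livers. How many of all probe sets were separated in this way was not counted, between tissues or between days. The difference of A2m was 1.78 ± 0.17 (SE, log2), a 3.425-fold higher level in embryo liver (limma, adjusted p = 4.63e-05).

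Crp stood at 10.24 with RA, 9.14 in control, 9.26 with EMD50 and 9.40 with EMD150 in embryo liver, and at 14.59, 13.74, 13.65 and 14.52 in maternal liver. The groups were far apart, and the level of Crp in embryo liver was 0.0408 times that of the mother (log2 difference -4.61 ± 0.13, limma adjusted p = 4.93e-08). Orm1 had 9.81, 8.71, 8.59 and 8.21 in embryo livers of the same 4 treatments, and 13.06, 12.67, 13.01 and 13.14 in maternal livers. Its level in embryo liver was 0.0566 times that of the mother (-4.14 ± 0.23, limma adjusted p = 1.91e-06). Neither gene overlapped between the tissues on any array.

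Cp, at 12.26 with RA, 11.19 in control, 11.39 with EMD50 and 11.55 with EMD150 in embryo liver, was also below maternal liver, with 14.45, 13.93, 13.85 and 14.20. The difference of its main probe set was -2.51 ± 0.11 (limma, adjusted p = 5.4e-07). The second Cp probe set gave a near equal difference of -2.45 ± 0.12 (limma, adjusted p = 1.01e-06). The lowest Cp probe set differed by -0.43 ± 0.11 (limma, adjusted p = 0.0156). It never exceeded 8.16 on any array.

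Hp and C3 differed less between the livers than the other genes. Hp had 14.10 with RA, 14.09 in control, 14.11 with EMD50 and 13.76 with EMD150 in embryo liver, and lay between 14.53 and 14.56 in maternal liver. C3 had 14.35, 14.41, 14.36 and 14.10 in embryo liver, and 14.53, 14.67, 14.65 and 14.60 in maternal liver. For both genes the EMD150 embryo liver held the lowest value, and the tissues did not overlap. Hp was lower in embryo liver by a difference of -0.52 ± 0.10 (limma, adjusted p = 0.00364), and C3 by -0.31 ± 0.10 (limma, adjusted p = 0.0397). All 8 member probe sets were thus called, where 37.5% of all probe sets were called in this comparison, 3042 higher and 2907 lower in embryo liver. The C3 call was lost when any of the 8 arrays was left out, with adjusted p between 0.0518 and 0.131. In a fit of all 22 arrays the calls of C3, Hp and the lowest Cp probe set were lost as well, and 5 member probe sets were called.

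**Figure D2:**
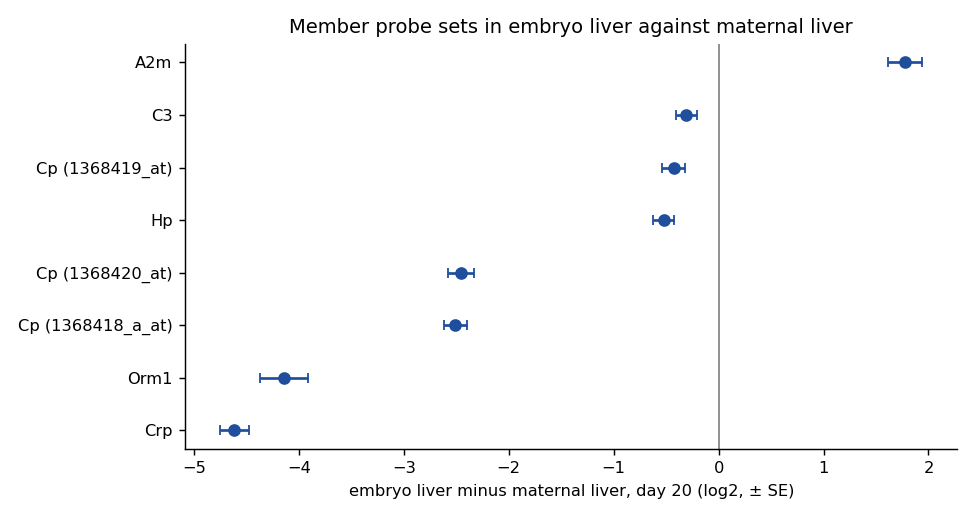
Difference of embryo liver minus maternal liver at day 20 (horizontal axis, log2) for the 8 member probe sets, with bars for the standard error of the limma fit over 4 arrays per tissue. A2m lies at 1.78, Hp and C3 lie within 1 log2 unit below 0, and Orm1 and Crp lie at -4.14 and -4.61.

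Other genes of the same systems came from lists chosen with earlier results of these data known. They were called lower in embryo liver more often than higher. Of all 15866 probe sets 2907 were called lower and 3042 higher, 37.5% together. Of 22 other positive acute phase genes 10 were lower and 5 higher, with a median of -0.20 against 0.05 over all probe sets. Lower ones included Apcs, serum amyloid P (-3.58), Serpina3n, a protease inhibitor (-3.70), Lbp, which binds bacterial lipopolysaccharide (-3.12), and Itih4 (-2.66). Of 23 complement genes 18 were lower and 2 higher, with a median of -0.72. Lower ones included Clu, C1s, C1r and C4bpa with -1.95, -2.03, -2.29 and -2.46. The 5 measured genes of the list of macroglobulins and their receptor were all lower, unlike A2m. Mug1, murinoglobulin, an A2m relative, differed by -5.56, Pzp, another relative, by -1.23, and Lrp1, the receptor that clears A2m bound to proteases, by -1.71. Of 31 genes of cytokine control 21 were lower and 2 higher, with a median of -0.39. Lower ones included Lifr, a receptor chain for the IL-6 family (-2.87), and Hnf4a, a liver transcription factor (-1.47).

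Embryo liver is also a blood-forming organ. All 4 measured red cell genes were higher there, with a median difference of 3.06, and 3 of 4 granulocyte and monocyte genes were higher and 1 lower. Hepatocyte marker genes summed to 16.52 to 16.60 (log2 of the sum) in embryo livers, against 16.85 to 16.92 in maternal ones. The brightest genes weigh most in such a sum, and the mean log2 level of the same 7 genes was 11.83 to 11.93 in embryo livers against 13.66 to 13.82 in maternal ones. Of the 7, 3 were lower, Tat and Tdo2, enzymes of amino acid breakdown, and Apoa1. Tdo2 had a difference of -6.73 and Apoa1 one of -0.29. In bulk samples fewer cells of a type and less RNA per cell cannot be told apart, and the part of cell makeup in these differences was not tested.

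The maternal livers of day 20 were compared with those of day 12 to see how the genes moved through pregnancy. A2m rose steeply and Orm1 fell, while no other member gene passed the test. A2m had 13.07 with RA, 12.73 in control, 12.06 with EMD50 and 12.11 with EMD150 at day 20. At day 12 it had 7.63 and 7.54 with RA, 7.71 in control, 7.89 with EMD50 and 11.21 with EMD150. Every array of day 20 lay above every array of day 12. The difference was 4.01 ± 0.61 (SE), 16.2-fold higher at day 20 (limma, adjusted p = 0.0103).

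The size of the A2m change depended on single arrays more than its direction did. Without the EMD150 array of day 12 it was 4.95 (limma, adjusted p = 0.00101). Without the control array of day 20 or of day 12 it was 3.71 and no longer passed, with limma adjusted p of 0.0556 and 0.0559. Without the RA array of day 20, the one with muscle genes, it was 3.36 (limma, adjusted p = 0.01).

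Orm1 moved the other way. Its values were 13.06 with RA, 12.67 in control, 13.01 with EMD50 and 13.14 with EMD150 at day 20. At day 12 they were 14.30 and 14.29 with RA, 13.93 in control, 13.86 with EMD50 and 14.25 with EMD150. The days did not overlap, and the level at day 20 was 0.459 times that of day 12 (-1.12 ± 0.09, limma adjusted p = 0.001). This call held in all 5 other settings and with each of the 9 arrays left out, with adjusted p between 0.000397 and 0.0162.

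Crp, Cp, Hp and C3 differed by -0.28, -0.12, -0.11 and -0.13 between the days, with limma adjusted p between 0.36 and 0.604. The 2 member calls stand beside 6.08% of all probe sets called in this comparison, 390 higher and 575 lower at day 20. Among the other positive acute phase genes, with a median of 0.05 against 0.02 over all probe sets, 1 of 22 passed: Hamp, the iron hormone hepcidin, which differed by -3.38 (limma, adjusted p = 0.001). Its range was 8.38 to 9.22 at day 20 and 11.13 to 12.78 at day 12. Of 11 genes known to fall in the acute phase 3 rose at day 20, Apoa1 of high density lipoprotein (1.49), Serpina6, which binds corticosteroids (0.59), and Rbp4, the retinol carrier (0.42). None of the 5 genes of the list of macroglobulins and their receptor passed. Of these, Pzp lay between 14.48 and 14.66 at day 20 and between 14.19 and 14.45 at day 12. In treated arrays the day and the length of dosing cannot be told apart. The control arrays, without either agent, had A2m at 12.73 at day 20 and at 7.71 at day 12.

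**Figure D3:**
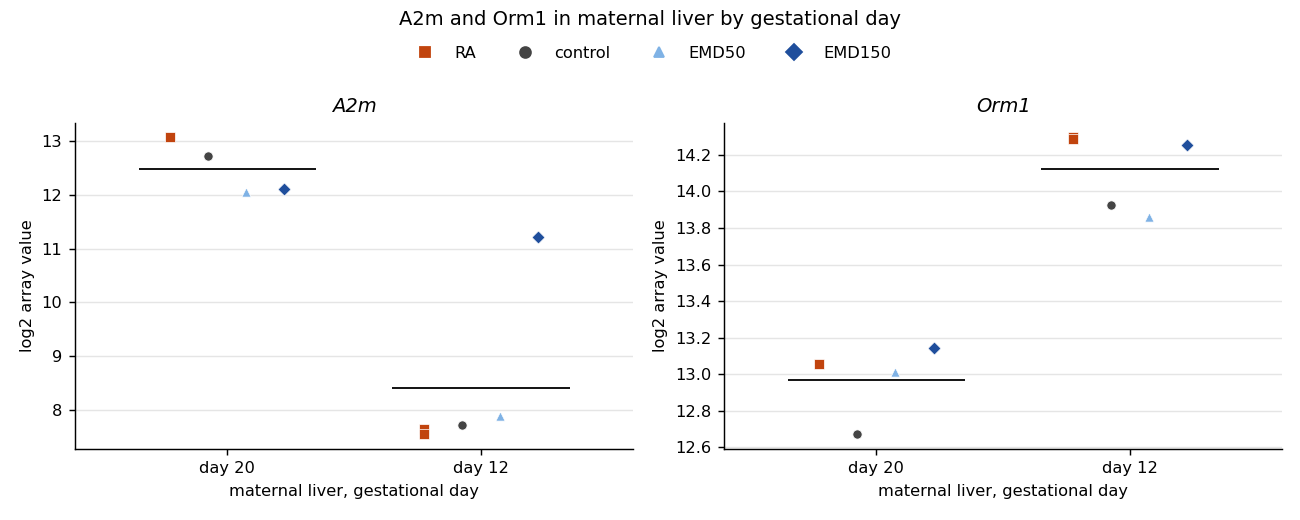
Deposited log2 values (vertical axes, which differ in range and do not start at 0) of A2m and Orm1 in maternal liver at day 20 and at day 12, with 1 point per array and a line at the mean of each day. A2m is higher at day 20 and Orm1 lower, and EMD150 holds the highest A2m value of day 12 at 11.21.

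A2m in the EMD150 maternal liver of day 12 was the clearest difference of a single treated array in this gene group. The array had 11.21, against 7.71 in control, a difference of 3.50. It also exceeded the highest of the other 4 arrays of its stratum, EMD50 with 7.89, 10.1-fold. The RA arrays, the only pair of like treatment there, differed by 0.09. With 1 array there is no test of this value. Only 3 of the 15866 probe sets (0.0189%) were at least 2-fold above each of the other 4 arrays of this stratum in EMD150, and A2m ranked 1st among all probe sets by that lead. This count and rank were devised after the A2m value on this array had been seen, so they describe the array and support nothing further. The other probe sets of this count have no gene symbol in the annotation used.

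Other acute phase genes were divided on the same array. Of 22 positive acute phase genes 10 were above all 4 other arrays (45.5%) and 5 below them (22.7%), where 26.2% of all probe sets were above and 20.9% below. None of the 22 was 2-fold above the others. Lcn2, a siderophore-binding protein of neutrophils and inflamed liver, had 9.97 against 8.55 to 9.46 on the others. Lbp had 11.91 against 11.13 to 11.43. Fgb, a fibrinogen chain, had 14.06 against 13.77 to 13.81. Hamp, which also responds to IL-6, lay lower, at 11.13 against 11.96 to 12.78, as did Apcs at 13.42 against 13.48 to 13.90, Mt2A, Itih3 and Sod2. Of 31 genes of cytokine control 16 lay below all 4 other arrays (51.6%) and 2 above (6.45%), with Il6r, the IL-6 receptor, at 9.25 against 9.46 to 10.29 and Stat3 at 10.07 against 10.29 to 10.64. These genes were picked after their values were seen. Of the members Hp led by 0.09, C3 lay lowest by a small margin, and Orm1, Crp and Cp lay within the range of the other arrays.

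At day 20 neither drug array lay above control for A2m. EMD50 and EMD150 maternal livers had 12.06 and 12.11, below control with 12.73 and RA with 13.07. All of these exceeded the 11.21 of the EMD150 array of day 12. The control arrays, 1 per day, had 12.73 at day 20 and 7.71 at day 12. The dosing windows end at day 11 or 17, before day 20. The part of the control levels or of the dosing windows in the unlike drug values of the 2 days was not tested. The summed level of the 4 measured granulocyte and monocyte genes in maternal liver of day 12 was 11.64 with EMD150, against 11.43 to 11.76 on the other 4 arrays. Lyz2, at 11.16 with EMD150, weighs most in this sum, and the part of such cells in the A2m value was not tested. The 3' minus 5' difference of Gapdh on the EMD150 array, 0.73, lay within the 0.70 to 0.80 of the others.

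Over all strata no member gene passed the test for either dose of the drug. EMD50 against control called 0 of the 15866 probe sets (0%) at an adjusted p under 0.05, with 253 at an unadjusted p under 0.05, none of them a member. EMD150 against control also called none (0%), with 2925 at an unadjusted p under 0.05 and again no member. The 8 member differences for EMD150 lay between -0.44 and 0.34. The mean drug effect in maternal liver (0%, with 123 at an unadjusted p under 0.05) and in conceptus, the embryo samples together (0%, with 1733), called none either, nor did the difference between these sides (0%, with 340).

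RA against control over all strata called 2 member probe sets, both higher. Crp rose by 0.81 ± 0.21 (limma, adjusted p = 0.0497) and the main Cp probe set by 0.77 ± 0.19 (limma, adjusted p = 0.0416). The second and lowest Cp probe sets differed by 0.72 and 0.36 and did not pass (limma, adjusted p = 0.21 and 0.274). Orm1 had a like difference, 0.80 ± 0.21, that missed the threshold (limma, adjusted p = 0.0624). In this comparison 1.83% of all probe sets were called, 282 higher and 9 lower. Cp and Orm1 were above their own control on 7 of 7 RA arrays, Crp and Hp on 6, C3 on 5 and A2m on 4. Each stratum has a single control array, and such directions were not counted over all probe sets. The Cp call was lost in 16 and the Crp call in 17 of the alternatives, which were 5 other settings and 22 fits with 1 array left out. Leaving out the 4 arrays that stood apart gave 0.59 for Cp and 0.48 for Crp, with limma adjusted p of 0.315 and 0.475.

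In the embryo samples Cp, Crp and Orm1 were all called higher with RA. Cp had 12.26 with RA and 11.19 in control in embryo liver, and 10.18 and 8.60 in embryo bone. In whole embryo it had 8.32 and 8.07 with RA against 7.20 in control. Every RA array lay above the control of its tissue, and the difference over the conceptus was 1.12 ± 0.22, a 2.18-fold higher level (limma, adjusted p = 0.019).

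Crp had 10.24 with RA against 9.14 in control in embryo liver and 9.59 against 7.98 in embryo bone. In whole embryo it had 7.94 and 8.71 with RA against 7.33 in control. Again all RA arrays were above control, with a difference of 1.16 ± 0.24 (limma, adjusted p = 0.0234). Orm1 had 9.81 with RA against 8.71 in control in embryo liver, 7.20 against 6.94 in embryo bone, and 8.63 and 8.59 against 6.98 in whole embryo. Its difference was 1.10 ± 0.24 (limma, adjusted p = 0.0319). In embryo bone Orm1 differed from its control by 0.27, the smallest of the 3, and Crp by 1.61.

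Of all probe sets 1.9% were called in the conceptus, 287 higher and 15 lower. The second Cp probe set differed by 1.18 ± 0.31 (limma, adjusted p = 0.0659) and the lowest by 0.46 ± 0.19 (limma, adjusted p = 0.31). Hp, C3 and A2m differed by 0.80, 0.83 and -0.40 without passing. Without the 4 arrays that stood apart Cp kept its call at 0.98 (limma, adjusted p = 0.0381) and Orm1 at 1.49 (0.0034), while Crp, at 0.82, lost it (0.0909). A fit of the 13 conceptus arrays alone called no member, with adjusted p of 0.0636 for Cp, 0.0508 for Crp and 0.105 for Orm1. All 3 calls were also lost without the bone control, the embryo liver control, the whole embryo control or the embryo liver RA array, with adjusted p between 0.0517 and 0.177. Without the RA bone array Cp, at 0.84, and Crp, at 0.92, were lost, without the RA56 whole embryo array Crp and Orm1, and without the RA5 one Orm1.

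Of the 22 other positive acute phase genes none passed with RA in the conceptus, with a median of 0.11 against -0.02 over all probe sets. Of 11 negative acute phase genes 1 rose, Serpind1, a thrombin inhibitor (0.94, limma adjusted p = 0.0242), and of 23 complement genes 1 rose, Cd59b, which protects cells from complement. No gene of the macroglobulin list, of cytokine control or of haem, copper and iron transport passed.

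In embryo liver, where the hepatocyte genes had near equal sums of 16.54 with RA and 16.60 in control, and means of 11.88 and 11.93, Cp, Crp and Orm1 were each about 1 log2 unit higher with RA. The exact differences cannot be tested with 1 array per treatment. Alb moved by little there, at 14.93 with RA and 14.98 in control. The granulocyte and monocyte genes had a higher sum with RA, 13.62 against 13.03 in control, and their part in the result was not tested. In whole embryo the hepatocyte sum was 13.65 and 13.30 with RA and 12.81 in control, 11.72 with EMD50 and 11.48 with EMD150, and its part was not tested either.

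In maternal liver RA called no member, and 0.0756% of all probe sets, 12 in number and all lower. The day 12 control array in this comparison had a high red cell signal, as given below. The 8 member differences there lay between -0.14 and 0.39, with Orm1 the highest at 0.39 ± 0.29 (limma, adjusted p = 1). The difference between the RA effects in maternal liver and conceptus called 0 of all probe sets (0%, with 465 at an unadjusted p under 0.05). For Cp it was -0.86 ± 0.35 and for Crp -0.83 ± 0.37, both at a limma adjusted p of 1, so the sides were not shown to differ. At day 20 alone, maternal Crp had 14.59 with RA, 13.74 in control, 13.65 with EMD50 and 14.52 with EMD150. Maternal Cp showed the same split, with 14.45, 13.93, 13.85 and 14.20, so the RA and EMD150 livers were the higher ones for both genes. This RA liver is the array with muscle genes, and EMD150 alone was above control by 0.78 for Crp and 0.27 for Cp. No such split existed at day 12, where Crp lay between 14.34 and 14.51 and Cp between 14.16 and 14.36 on the 5 arrays. In the same livers C3 lay between 14.70 and 14.77 and Hp between 14.57 and 14.75.

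The day 12 tissues have the only repeated RA arrays. In maternal liver of day 12 RA called no member and 0.12% of all probe sets, 19 in number and all lower. The 4 measured red cell genes summed to 14.43 (log2 of the sum) on the single control array of this stratum. On its other arrays they summed to 13.10 to 13.31. The part of red cell RNA in the lower calls was not tested. Orm1 had 14.30 and 14.29 with RA against 13.93 in control, a difference of 0.37 ± 0.19 (limma, adjusted p = 1). In whole embryo of day 12 RA also called no member and 0.0315% of all probe sets, 5 in number and all lower. Differences there were 2.31 ± 0.58 for C3, 1.80 ± 0.40 for Hp, 1.63 ± 0.19 for Orm1, 1.002 ± 0.21 for Cp and 0.99 ± 0.32 for Crp, with limma adjusted p between 0.0967 and 0.4. All 5 had an unadjusted p under 0.05. Without the RA56 array, on the RA5 array alone, the differences were 1.48 for C3, 1.27 for Hp, 1.65 for Orm1, 1.13 for Cp and 0.60 for Crp.

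C3 varied widely between the repeats in whole embryo, with 7.72 and 9.37 with RA, 6.23 in control, 7.14 with EMD50 and 7.53 with EMD150. Hp followed with 8.92 and 9.98 with RA, 7.65 in control, 8.35 with EMD50 and 8.82 with EMD150. The RA56 array was the higher of the RA arrays for both. Alb, which is made by the liver and yolk sac at this stage, also differed between these arrays, with 10.19 and 12.00 with RA, 8.59 in control, 9.53 with EMD50 and 9.90 with EMD150. The part of liver or yolk sac RNA in the C3 and Hp values was not tested. Orm1 had near equal repeats, 8.63 and 8.59, that differed by 0.04, while EMD50 and EMD150 with 7.12 and 7.10 lay close to control with 6.98. A2m had 7.43 and 6.88 with RA, 6.85 in control, 6.88 with EMD50 and 6.93 with EMD150. All 6 genes were above control on all 4 treated whole embryo arrays, so the single control array enters each of these differences. The share of all probe sets above control on all 4 was not counted.

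EMD150 was also set directly against RA over all strata. Here 14.4% of all probe sets were called, 1030 higher and 1252 lower with EMD150, and no member was among them. The nearest was Orm1 with a difference of -0.62 ± 0.21 (limma, adjusted p = 0.0552). Crp with -0.49 and the main and second Cp probe sets with -0.43 and -0.65 had an unadjusted p under 0.05 and a limma adjusted p between 0.0945 and 0.118. Without the 4 arrays that stood apart 13 of all probe sets were called, again no member, and the differences were -0.84 for Orm1, -0.17 for Crp, and -0.25 and -0.17 for these Cp probe sets (limma, adjusted p between 0.102 and 0.641). The 2 agents were given at unlike doses, so this sets 1 dose of each side by side.

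**Figure D4:**
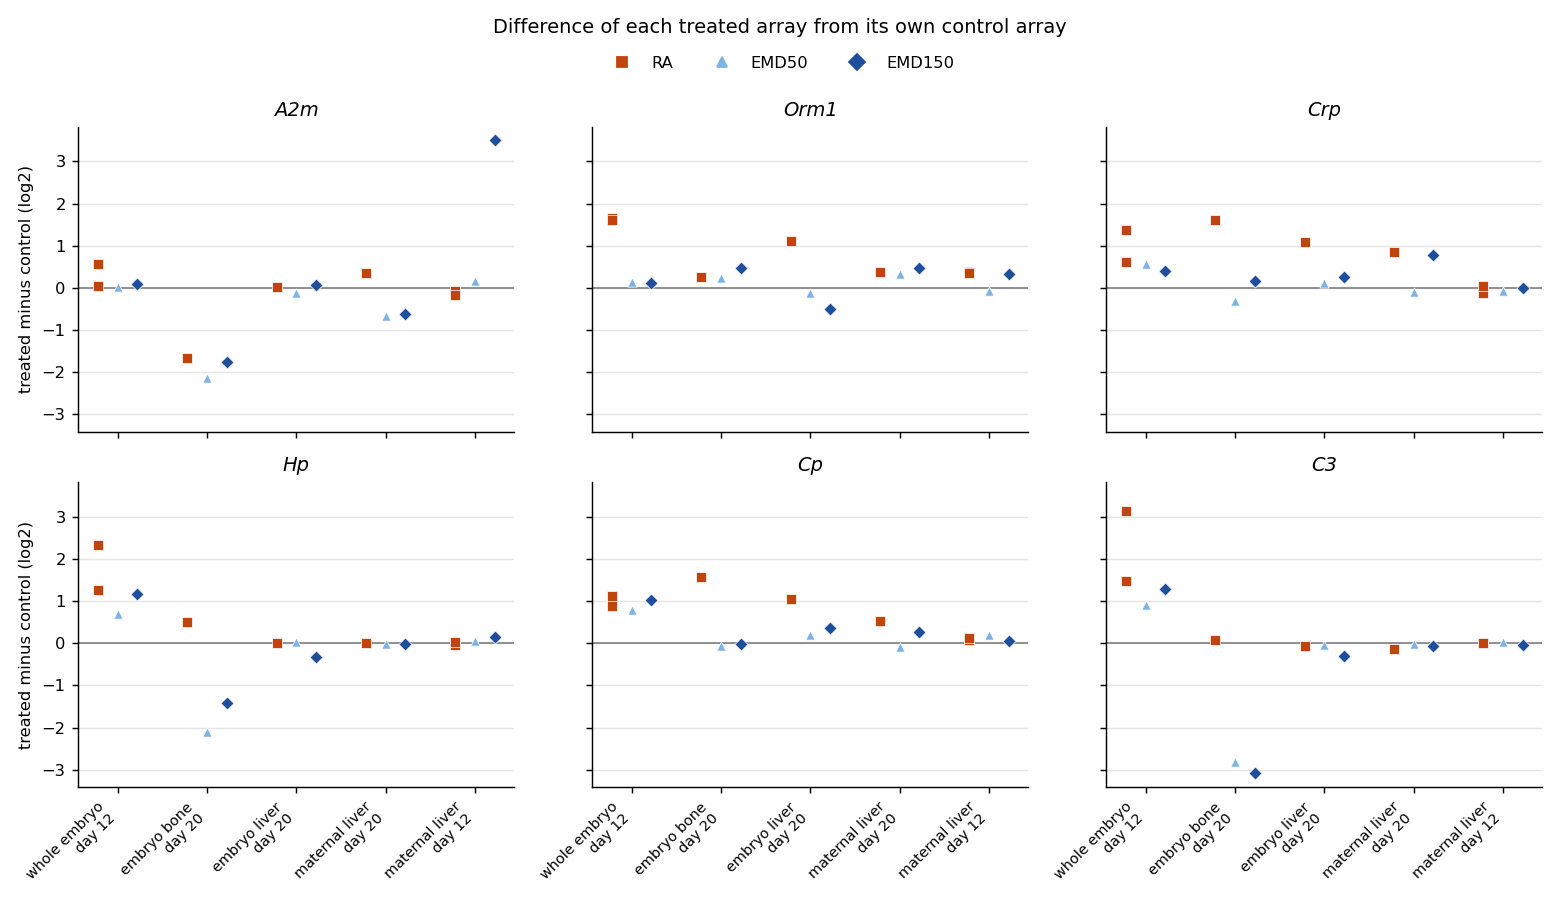
Difference of each treated array from the control array of its own stratum (vertical axis, log2) for the main probe set of the 6 genes, with RA, EMD50 and EMD150 as separate points. Cp and Orm1 lie above 0 on all 7 RA arrays, A2m reaches 3.50 with EMD150 in maternal liver of day 12, and C3, A2m and Hp fall furthest below 0 with the drug in embryo bone. A2m lies below 0 there with RA as well, at -1.66.

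In embryo bone C3, Hp, Crp and Cp (main probe set) had wider ranges over the treatments than in any other stratum, which was not so for A2m and Orm1. The RA and EMD50 bone arrays are among the 4 that stood apart, so without them only control and EMD150 remain. C3 had 10.21 with RA, 10.14 in control, 7.32 with EMD50 and 7.05 with EMD150, so the drug arrays lay about 3 log2 units below. Hp split the same way, with 10.66, 10.16, 8.04 and 8.75. A2m split differently, with 8.42, 10.08, 7.93 and 8.33, so that only control was high. Cp and Crp were high with RA alone, Cp with 10.18, 8.60, 8.55 and 8.58 and Crp with 9.59, 7.98, 7.68 and 8.15 in the same order of treatments. Orm1 stayed low on all 4 bone arrays, between 6.94 and 7.40. Alb had 13.60 with RA, 13.60 in control, 10.70 with EMD50 and 9.44 with EMD150, the split of C3 and Hp. Afp had 7.58 with RA, 12.34 in control, 7.82 with EMD50 and 7.66 with EMD150, the split of A2m. Of the hepatocyte list 7 genes were measured, none is at 0, and their sum was 14.12 with RA, 14.28 in control, 12.07 with EMD50 and 13.15 with EMD150. The part of liver RNA in the bone values was not tested, and the EMD50 array is the one with the high Gapdh 3' minus 5' difference.

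Start regions were available in the RefSeq table (build GRCr8) for Orm1, Crp, Cp and C3, from 250 bases before to 50 bases after the gene start. They are shown because Orm1, Crp and Cp were the 3 genes called together with RA in the conceptus, with C3 as a member that was not. The search was for TTGCNNAA, a C/EBP-like motif, on either strand, and capitals mark a match. Coordinates are chr5:81788259-81788558 for Orm1, chr13:87693812-87694111 for Crp and chr2:104368420-104368719 for Cp, all on the plus strand, and chr9:2201290-2201589 for C3 on the minus strand.
Orm1: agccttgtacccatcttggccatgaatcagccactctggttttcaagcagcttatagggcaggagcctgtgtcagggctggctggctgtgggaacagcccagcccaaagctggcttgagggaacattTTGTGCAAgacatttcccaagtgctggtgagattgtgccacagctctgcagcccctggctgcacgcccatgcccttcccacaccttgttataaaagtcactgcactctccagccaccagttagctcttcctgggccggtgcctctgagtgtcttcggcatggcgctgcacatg
Crp: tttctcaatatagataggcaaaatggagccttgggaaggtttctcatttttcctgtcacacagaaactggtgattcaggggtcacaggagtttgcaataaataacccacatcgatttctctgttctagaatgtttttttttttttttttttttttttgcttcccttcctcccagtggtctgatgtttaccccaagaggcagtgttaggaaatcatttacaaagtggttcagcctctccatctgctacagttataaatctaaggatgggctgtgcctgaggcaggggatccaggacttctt
Cp: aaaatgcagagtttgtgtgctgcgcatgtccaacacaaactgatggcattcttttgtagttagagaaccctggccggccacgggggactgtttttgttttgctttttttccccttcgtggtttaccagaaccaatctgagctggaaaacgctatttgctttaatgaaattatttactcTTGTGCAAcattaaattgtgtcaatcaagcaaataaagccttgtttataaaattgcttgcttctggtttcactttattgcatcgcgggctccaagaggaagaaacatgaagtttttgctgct
C3: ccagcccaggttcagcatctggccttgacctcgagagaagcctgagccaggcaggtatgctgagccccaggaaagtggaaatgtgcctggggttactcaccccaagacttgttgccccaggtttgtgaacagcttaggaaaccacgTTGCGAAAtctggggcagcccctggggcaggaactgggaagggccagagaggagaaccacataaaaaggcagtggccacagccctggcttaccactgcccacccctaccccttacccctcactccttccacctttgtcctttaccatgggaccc

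The motif was found 1 time each in Orm1, Cp and C3, starting at -123, -72 and -104 relative to the gene start, and not in Crp. Of 33469 rat start regions of the same length 10.6% held it. A second motif, TTCNNNGAA, known from STAT binding, was in none of the 4 and in 8.87% of all. A match is a description of letters and not a binding site.

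As a last description, the genes most like each member over the 22 log2 values were listed. The points share arrays and tissues, so no test is given. Crp was most like Pon1 (Pearson r = 0.995), Cyp2e1 (0.992) and Mug1 (0.990), Orm1 most like Cyp2e1 (0.989) and Nqo2 (0.986), and Cp most like Apoc3 (0.993) and Hrg (0.989). C3 and Hp were near copies of each other (0.996), but Hp was as close to Gc (0.997) and Itih3 (0.997), and C3 to Itih3 (0.996). A2m had no like gene above Pheta1 (0.936), and correlated with the other 5 members at 0.147 to 0.631. After the mean of each stratum was subtracted, A2m had r between 0.0005 and 0.248 with the other members, while Crp and Cp kept 0.867. Crp was then closer to Nup155 (0.893), Ppp6c (0.892) and Fabp1 (0.889) than to Cp, and Cp was closest to Nup155 (0.912). C3 was then closest to Alb (0.985), with Hp at 0.959.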

How the data were processed

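RNA of 22 samples was measured on single-colour arrays, 1 array per sample. The authors deposited log2 values per probe set. The submitters' processing notes name RMA, robust multi-array averaging, without a version. Of 15923 rows 57 were array controls, and the other 15866 were tested without a filter. Array medians ran from 8.09 to 8.22, and the number of arrays limits the precision. Symbols came from the platform annotation table (12783 probe sets with 1 symbol, 312 with several, 2771 with none), updated through the RefSeq gene table of GRCr8.

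Linear models used limma 3.58.1 under R 4.3.3, moderated with an intensity trend (eBayes). All tests were two-sided, p-values were adjusted by Benjamini-Hochberg over all probe sets of a comparison, and a call is an adjusted p under 0.05. Treatments were compared on all 22 arrays, blocked by stratum (14 residual degrees of freedom), or with separate effects in maternal liver and conceptus (11). The 9 maternal livers with treatment as a block gave the day comparison (4), the 8 livers of day 20 likewise the embryo comparison (3), and the 10 arrays of day 12 the effects by tissue (2). In the last, spread comes from the RA pairs alone, and single arrays are assumed to vary like them. A drug effect by side is the mean of both doses. An array that stands alone in its tissue, day and treatment has no test of its own.

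A gene's main probe set is the one with the highest mean over all arrays, and lists use 1 such probe set per gene. A comparison names up to 4 genes of a list, those with the smallest p. The members and lists were chosen with earlier results of these data known. The code was tested on simulated data. Alternatives were no intensity trend, quantile normalization, the brighter 0.5 of probe sets, array weights, other sets of arrays, and each array left out in turn.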

Additional observations from a re-analysis of the deposited data

Results flagged for a closer look

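In maternal liver the effects of the drug on A2m ran in opposite directions at the 2 days. At day 20 the mean effect of both doses was -0.65 and at day 12 it was 1.84, so the day 20 effect minus the day 12 effect was -2.49. The day 12 mean rests on 1 array, as the EMD150 array was above control by 3.50 and the EMD50 array by 0.17. Without that EMD150 array, an alternative chosen after seeing the data, the difference was -0.82. The difference was not tested, since each array is single. RA effects on A2m also differed in sign, with 0.34 at day 20 and -0.13 at day 12, a difference of 0.47. For C3 with RA it was -0.16 and for Hp with the drug -0.13. None of these was tested, and the last 3 are small.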

How the results depend on the processing

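The alternatives were followed for counts of member calls and for member differences with an unadjusted p under 0.05, and none of these differences changed direction. Smaller member differences were not followed. For RA over all strata the count of member calls was 2, and it was 1 without the intensity trend, 0 after quantile normalization, 0 without the 4 arrays that stood apart, and 0 to 3 when single arrays were left out. For RA in the conceptus it was 3, 0 in a fit of the conceptus alone, and 0 to 4 with single arrays left out. For EMD150 against RA it was 0, and 1 after quantile normalization, 1 with array weights, and 0 to 1 with single arrays left out. For RA in whole embryo of day 12 it was 0, and 3 with array weights and 0 to 6 with single arrays left out. The 6 came from the fits with 1 RA array against 1 control array, with spread from the maternal RA pair alone, which called 1403 and 6603 of all 15866 probe sets. The day comparison had 2 calls, and 1 to 3 with single arrays left out, and embryo against maternal liver had 8, 5 in a fit of all 22 arrays and 6 to 7 with single arrays left out. The drug comparisons and RA in maternal liver kept 0 member calls in every fit. Leaving out the control array of a day 12 tissue could not be fitted for the effects in that tissue. No paired analysis was possible because control and drug arrays are single in every stratum, so no compared groups share 2 replicate numbers. The pair of codes RA5 and RA56 is shared only by whole embryo and maternal liver of day 12, which were not compared, and the liver comparisons have treatment as a block already. The small number of arrays limits every comparison, and values near the top of the scale may be compressed.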
